A study of Gallus gallus with 9 samples.

Results

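TFAP2A, TFAP2B, TWIST1, TWIST2, SNAI1 and SNAI2 are 6 transcription factor genes of cranial neural crest and its mesenchyme. Every probe set that the platform annotation assigns to one of them was taken, which gave 7 probe sets of 38439 tested, 2 of them for SNAI1 and 1 for each other gene. The samples were normal, untreated chicken embryos (Gallus gallus) of Hamburger Hamilton stage 18, incubated at 38 degrees C, with no strain named and the genotype given as unknown. Their facial prominences, the buds that build the face, were microdissected and held mesenchyme together with its epithelium. The mandibular prominence forms the lower jaw, and the maxillary prominence the sides of the upper beak. The frontonasal mass, dissected between the nasal pits, forms the middle of the upper beak. Each group had 3 arrays, and each array measured 1 pool of 26 to 32 frozen pieces, so the p-values below measure the spread between pools.

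Neural crest cells leave the dorsal neural tube, lose their epithelial contacts, migrate into the face and form most of its skeleton and connective tissue. TFAP2 proteins bind GC-rich DNA as dimers and act in the surface ectoderm, where the crest is induced, as well as in the crest itself. TWIST proteins are basic helix-loop-helix factors that pair with E proteins and keep mesenchyme in an undifferentiated state, and SNAI proteins are zinc finger repressors best known for shutting down the epithelial cadherin CDH1. Mutations of TFAP2A, TFAP2B and TWIST1 in humans cause branchio-oculo-facial, Char and Saethre-Chotzen syndromes, all of which alter the face.

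The deposited medians of the 9 arrays ran from 34.3 to 37.3 intensity units. Background was set per array at the 95th percentile of the 598 viral and reporter probe sets, which was 31.6 to 37.1 after the arrays were scaled to a common median, and 49.2% to 53.3% of probe sets exceeded it. Precision is limited by the number of arrays. Frontonasal pool 2 stood apart from the other arrays, since the summed signal of 9 marker genes of visceral organs was 4891 there and 466 to 629 on the 8 others. Differences of the members from the frontonasal mass are therefore also given without it. For 18 other named genes, 29 differences from the frontonasal mass were called with all arrays and 28 of these without that pool, none moving by over 1.5 times, and the exception was CDH1 between mandibular and frontonasal pools. Another 2 differences of these genes, called in neither fit, changed sign. Further genes named below, such as DSP, KRT14, EPCAM and ANTXR1, were not among these 18. Of the 7 measured crest mesenchyme markers, 6 were above background on every array.

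**Figure D1:**
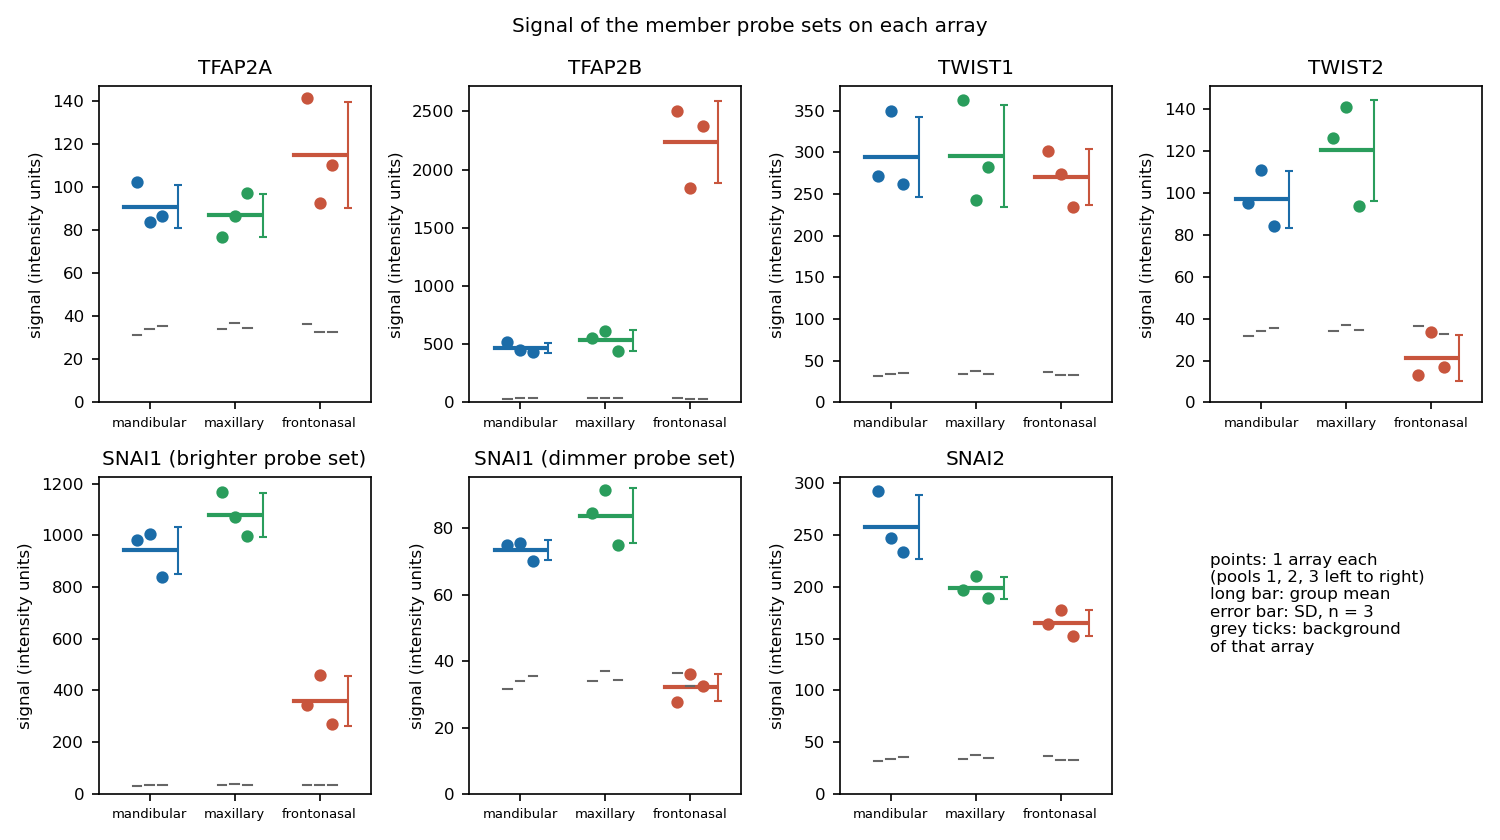
Signal of each member probe set in intensity units (vertical axes start at 0) on the 9 arrays, by prominence, with points for arrays, long bars for group means, error bars for SD (n = 3) and grey ticks for the background of each array. TFAP2B was highest in the frontonasal mass at 1838 to 2500 units, TWIST2 and SNAI1 were lowest there, and TFAP2A and TWIST1 overlapped between all groups.

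Of the 6 genes, 4 separated the frontonasal mass from the mandibular prominence, and 3 separated it from the maxillary prominence. TFAP2B was lower in both jaw buds than in the frontonasal mass, while TWIST2 and SNAI1 were higher in both. SNAI2 was higher in the mandibular prominence. Between mandibular and frontonasal pools, 3 of the 6 genes were higher and 1 was lower (limma, adjusted p under 0.05 over all probe sets), where 4.14% of 13009 named genes were called, 1.83% higher and 2.31% lower. Between maxillary and frontonasal pools, 2 were higher and 1 was lower, where 3.52% of genes were called, 1.31% higher and 2.21% lower. None of the 6 was called by limma between mandibular and maxillary pools, where 0.454% of genes were called (0.292% higher, 0.161% lower), and 1 member, SNAI2, had an unadjusted p under 0.05. With trended and robust variance estimates, the number of members called there was also 0. The arrays of the groups did not overlap for 4 of the 6 genes in each comparison with the frontonasal mass, and for 1 between the jaw buds. Among all named genes, 21.1%, 20.5% and 15.3% did not overlap in these comparisons. The comparisons share arrays, so their values stand side by side here and are not independent.

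TFAP2A acts early in crest induction. Its signal was 102, 84.1 and 86.6 in mandibular pools 1, 2 and 3, 77, 86.7 and 97.2 in maxillary pools, and 142, 92.8 and 110 in frontonasal pools. The frontonasal values were the most spread and overlapped with those of both other groups. Its log2 difference, taken on log2(signal + 16) here and below, was -0.28 ± 0.15 (SE, n = 3 per group) between mandibular and frontonasal pools, with a 95% interval of -0.61 to 0.05 (limma adjusted p = 0.468). It was -0.33 ± 0.15 between maxillary and frontonasal pools, with an interval of -0.67 to -0.0015 (adjusted p = 0.354). Neither passed the test, with or without frontonasal pool 2 (-0.40 and -0.46 without it, adjusted p = 0.238 and 0.192). Between the jaw buds the interval was -0.28 to 0.39.

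TFAP2B acts in crest, surface ectoderm and kidney, and its signal was 516, 450 and 437 in mandibular, 553, 611 and 438 in maxillary, and 2500, 1838 and 2378 in frontonasal pools. All 3 frontonasal arrays lay far above the 6 others, and the jaw buds overlapped. The frontonasal signal was 4.76-fold the mandibular one and 4.19-fold the maxillary one as ratios of geometric means. The log2 difference was -2.21 ± 0.16 for mandibular minus frontonasal pools (limma adjusted p = 0.000265) and -2.04 ± 0.16 for maxillary minus frontonasal pools (adjusted p = 0.000501). Among the 13009 named genes, 36 and 32 had a larger absolute difference in these comparisons. Without frontonasal pool 2, the lowest of its group, the differences were -2.35 and -2.17 (adjusted p = 0.000333 and 0.00072). The interval of the difference between the jaw buds was -0.53 to 0.18.

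TFAP2 genes are also active in surface ectoderm, and with all arrays more markers of surface epithelium were called lower than higher in the jaw buds. The summed signal of the 9 measured surface epithelium markers was 8266 to 9631 in frontonasal, 6952 to 7339 in mandibular and 5832 to 6685 in maxillary pools. Of these markers 2 were lower and 1 higher in mandibular than in frontonasal pools, and 4 were lower and 1 higher in maxillary pools, while 6 and 4 did not pass. Of all named genes, 2.31% and 2.21% were called lower and 1.83% and 1.31% higher in these comparisons. For the surface epithelium markers, the values were as follows. Their median log2 difference was -0.25 and -0.24. The lower ones were CDH1 and DSP in both comparisons, and EPCAM and CLDN1 in maxillary pools only. Without frontonasal pool 2, the call of CDH1 between mandibular and frontonasal pools was lost (limma adjusted p = 0.101). Values of DSP, EPCAM and KRT14 without that pool are not given. DSP differed by -0.53 and -0.85 (limma adjusted p = 0.0396 and 0.00491). The higher one was the basal keratin gene KRT14, at 0.93 and 0.71 on the log2 scale (limma adjusted p = 0.00967 and 0.0357). The sums are carried mostly by EPCAM and CLDN1. TP63, which defines stratified epithelium, differed from the frontonasal mass by -0.08 and -0.01 on the log2 scale (limma adjusted p = 0.873 and 0.983), and the epithelial adhesion gene EPCAM by -0.25 and -0.48 (adjusted p = 0.182 and 0.0178). Forebrain markers had a summed signal of 1335 to 1717 in frontonasal, 206 to 220 in mandibular and 323 to 447 in maxillary pools. Like TFAP2B, this sum was highest in the frontonasal mass. Of the 7 measured, 6 and 5 were called lower in mandibular and maxillary pools, against 2.31% and 2.21% of all named genes. SOX2 went the other way in both comparisons (0.55 in each) without passing. The part of either tissue in the TFAP2B difference was not tested, and in bulk pools fewer cells of a type and less RNA per cell cannot be told apart.

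TWIST1, required in mouse for crest-derived head mesenchyme, had the least change of the members. Its signal was 272, 350 and 262 in mandibular, 363, 242 and 282 in maxillary, and 301, 274 and 235 in frontonasal pools. The 3 groups overlapped, and the highest array was 1.55 times the lowest. The log2 differences were 0.11 ± 0.17 for mandibular and 0.11 ± 0.17 for maxillary minus frontonasal pools (limma adjusted p = 0.848 and 0.85). Their intervals, -0.27 to 0.50 in each case, leave room for changes of that size in either direction. The differences were 0.13 and 0.13 without frontonasal pool 2 (adjusted p = 0.858 and 0.872). Between the jaw buds the difference was 0.00051 with an interval of -0.38 to 0.38.

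TWIST2, also called Dermo-1 and known for roles in dermis and skeletal progenitors, had 95.4, 111 and 84.2 units in mandibular and 126, 141 and 94 in maxillary pools. In frontonasal pools it had 12.9, 33.8 and 16.9 units, of which only the value of pool 2 was above background, and narrowly. The jaw buds overlapped with each other and lay clear of the frontonasal mass. The log2 difference from the frontonasal mass was 1.64 ± 0.21 in mandibular pools (limma adjusted p = 0.00581) and 1.90 ± 0.21 in maxillary pools (adjusted p = 0.00309). These values depend on the pseudocount because the frontonasal signal was so low, and were 2.08 and 2.37 with a pseudocount of 4 and 0.92 and 1.11 with one of 64, with the calls kept in each. With frontonasal values below background raised to it, the mandibular signal was 2.82-fold and the maxillary signal 3.47-fold higher than the frontonasal one. Without frontonasal pool 2, in which TWIST2 was highest of the frontonasal pools, the differences were 1.87 and 2.13 (adjusted p = 0.00155 and 0.00131). The interval of the difference between the jaw buds was -0.75 to 0.23.

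**Figure D2:**
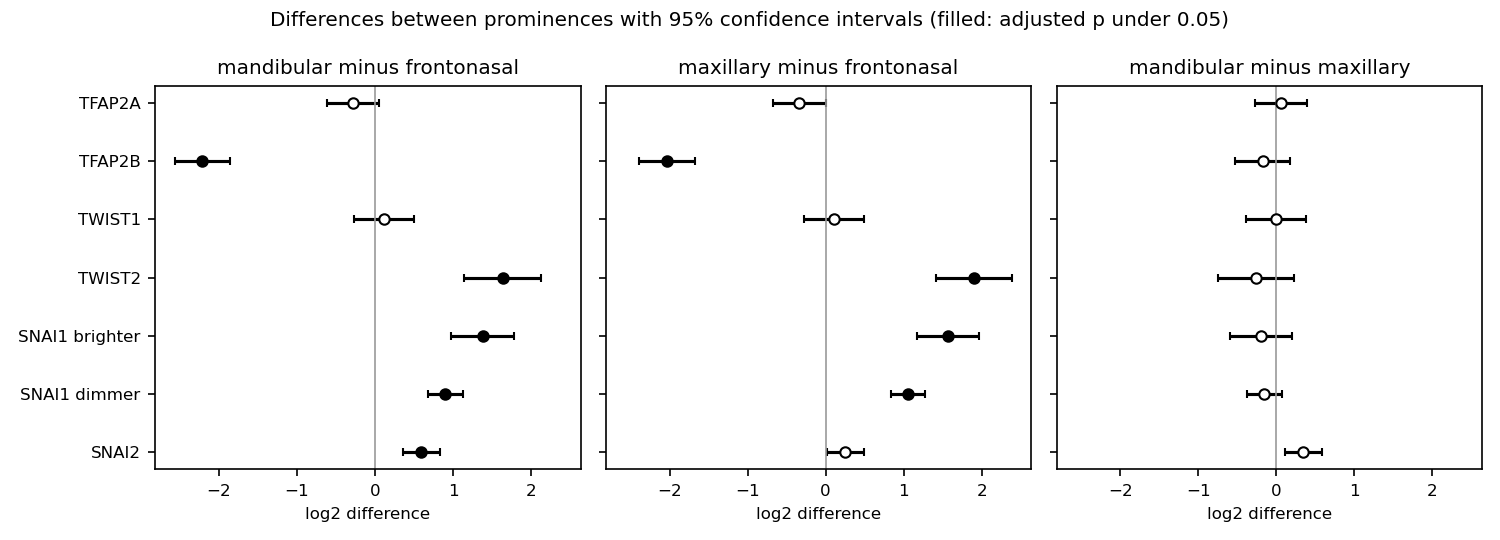
Log2 differences of the 7 member probe sets between prominences on log2(signal + 16), with 95% confidence intervals from the limma fit to 9 arrays, filled where the adjusted p was under 0.05. TFAP2B lay below 0 and TWIST2 and both SNAI1 probe sets above 0 in the comparisons with the frontonasal mass, and no point was filled between mandibular and maxillary pools.

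SNAI1, a repressor of epithelial genes, was measured by a brighter and a dimmer probe set. The brighter one had 981, 1006 and 839 units in mandibular, 1167, 1069 and 996 in maxillary, and 345, 462 and 270 in frontonasal pools. All 6 jaw arrays lay above all 3 frontonasal arrays. Its log2 difference was 1.38 ± 0.17 in mandibular minus frontonasal pools (limma adjusted p = 0.00491), a ratio of 2.68, and 1.57 ± 0.17 in maxillary minus frontonasal pools (adjusted p = 0.00288), a ratio of 3.07. Frontonasal pool 2 was again the array of its group nearest to the jaw buds, and without it the differences were 1.57 and 1.76.

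The dimmer probe set read 75, 75.5 and 70.1 in mandibular, 84.8, 91.6 and 75 in maxillary, and 27.7, 36.1 and 32.5 in frontonasal pools. It separated the groups in the same way, with only frontonasal pool 2 above background in its group. Its log2 differences were 0.90 ± 0.10 and 1.05 ± 0.10 (limma adjusted p = 0.00227 and 0.00114), and 0.52 and 0.62 with a pseudocount of 64. They were 0.96 and 1.11 without frontonasal pool 2 (adjusted p = 0.00339 and 0.00224). Averaging the probe sets gave 1.14 and 1.31 (adjusted p = 0.000535 and 0.000297). Between the jaw buds the interval was -0.59 to 0.21 for the brighter and -0.38 to 0.07 for the dimmer probe set.

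SNAI2, known as Slug and the member of its family that marks premigratory crest in chick, was graded over the 3 prominences. Its signal was 293, 248 and 233 in mandibular, 197, 210 and 189 in maxillary, and 164, 178 and 152 in frontonasal pools. No arrays of different groups overlapped, with the mandibular prominence highest and the frontonasal mass lowest. Only the outer step passed the test, at 0.60 ± 0.10 for mandibular minus frontonasal pools (limma adjusted p = 0.0206). That call was lost without mandibular pool 1 or 2 or frontonasal pool 1 or 3 (adjusted p = 0.0622, 0.0655, 0.0668 and 0.0708) and in a fit of these 6 arrays alone (0.0728). The inner steps were 0.25 ± 0.10 for maxillary minus frontonasal pools (95% interval 0.02 to 0.49, adjusted p = 0.323) and 0.34 ± 0.10 for mandibular minus maxillary pools (0.11 to 0.58, adjusted p = 0.416). Without frontonasal pool 2 the difference between mandibular and frontonasal pools was 0.65 (adjusted p = 0.0277), and that between maxillary and frontonasal pools 0.30 (adjusted p = 0.305).

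Related genes of a family were compared within arrays, where the design allowed no p under 0.05. The log2 difference of TFAP2B minus TFAP2A was taken within each array and centred on its mean over 9 arrays. It was 1.10, 1.19 and 1.34 in frontonasal pools, -0.73, -0.68 and -0.76 in mandibular pools, and -0.28, -0.29 and -0.90 in maxillary pools. All frontonasal arrays lay above the others, by a mean of 1.93 over mandibular and 1.70 over maxillary pools when the sign is turned to frontonasal minus jaw bud. TWIST2 minus TWIST1 ran the other way, at -1.58, -0.67 and -1.05 in frontonasal pools against 0.35 to 0.50 in mandibular and 0.44 to 1.15 in maxillary pools. TWIST2 was below background on 2 frontonasal arrays, so the size of this difference depends on the pseudocount. Its mandibular minus frontonasal value of 1.52 was 1.96 with a pseudocount of 4 and 0.82 with one of 64, and its maxillary minus frontonasal value of 1.79 was 2.25 and 1.01.

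SNAI2 minus SNAI1 split all 3 prominences. It was 0.72, 0.42 and 0.96 in frontonasal pools, 0.03, -0.23 and -0.05 in mandibular pools, and -0.75, -0.54 and -0.58 in maxillary pools. The mandibular value exceeded the maxillary one by 0.54, with no overlap of arrays, although neither gene passed the test between these groups. Of 9 such comparisons, 7 had no overlap of arrays, and for each of these the exact permutation test, two-sided, gave p = 0.1 (0.129 after Benjamini-Hochberg adjustment over the 9). With 3 arrays against 3 no smaller p is possible, and 0.05 was out of reach. The share of other gene pairs without overlap was not computed, and among single named genes it was 15.3% to 21.1%. Each pair holds a gene already called in both comparisons with the frontonasal mass (TFAP2B, TWIST2 or SNAI1). The separations of the pairs from the frontonasal mass are therefore not separate results. Nor is the split of the SNAI pair between the jaw buds wholly separate. SNAI2 alone did not overlap there, with a mandibular minus maxillary difference of 0.34. The TFAP2 and TWIST pairs did not separate mandibular from maxillary pools (exact permutation p = 0.4 each). Without frontonasal pool 2, the differences of mandibular and maxillary from frontonasal pools were -1.94 and -1.71 for the TFAP2 pair, 1.74 and 2 for the TWIST pair, and -0.92 and -1.46 for the SNAI pair.

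**Figure D3:**
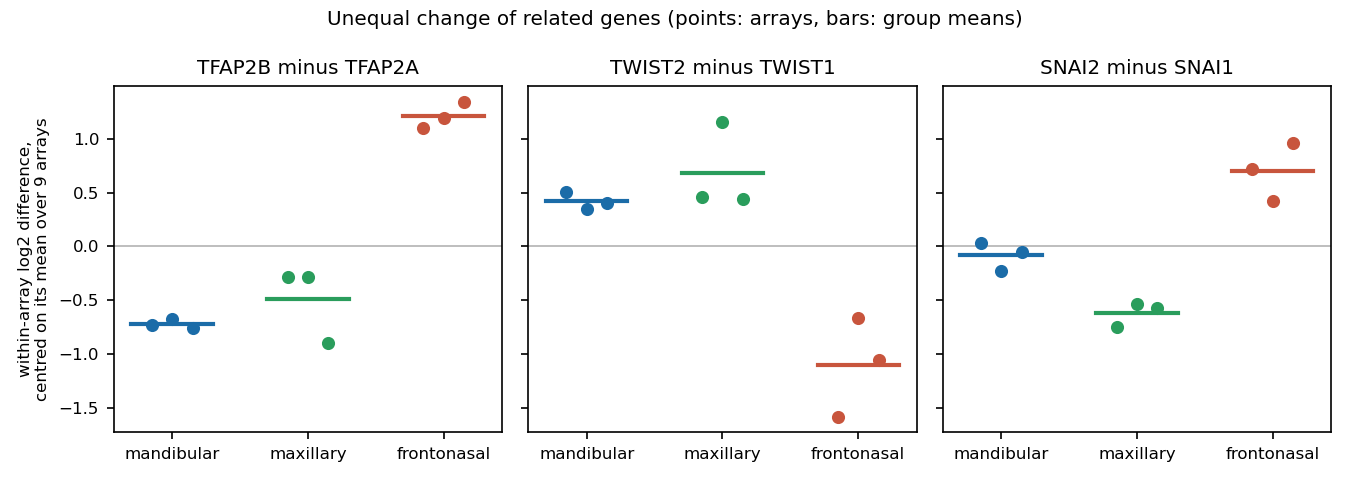
Within-array log2 difference between the related members, centred on its mean over the 9 arrays, by prominence, with points for arrays and bars for group means. For TFAP2 and TWIST the frontonasal mass lay apart from both jaw buds, in opposite directions, and for SNAI the order was frontonasal, mandibular, maxillary with no overlap.

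Other relatives of the members were dim. TFAP2C, a trophoblast and ectoderm gene, was above background on 1 mandibular array and on no maxillary or frontonasal array, and TFAP2E on 1 frontonasal array only. Neither passed in any comparison, and no fold is given for them; they are named, like the E protein genes below, after their values were seen. TWIST3, a TWIST relative of the chicken that was not among the listed genes and is named here after its values were seen, read 32.5 to 52.9 in mandibular, 35.5 to 46.8 in maxillary and 21 to 75.9 in frontonasal pools. It overlapped between all groups, with limma adjusted p values of 0.991, 0.988 and 1.

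The genes next to the members were looked up in the GRCg7b gene table. The neighbour of TWIST1 on one side was HDAC9, a histone deacetylase gene. HDAC9 read 408 to 429 in mandibular, 556 to 606 in maxillary and 58.4 to 63.8 in frontonasal pools, so that no arrays of different groups overlapped. Its log2 difference from the frontonasal mass was 2.48 ± 0.07 in mandibular and 2.95 ± 0.07 in maxillary pools (limma adjusted p = 8.93e-06 and 2.06e-06), beside 0.11 and 0.11 for TWIST1. FERD3L on the other side, a helix-loop-helix gene, was above background on 2, 1 and 2 arrays of the mandibular, maxillary and frontonasal groups and passed in no comparison. PKHD1 next to TFAP2B differed from the frontonasal mass by -0.23 and -0.35 and HDAC4 next to TWIST2 by 0.21 and 0.18, none of which passed (adjusted p = 0.399, 0.169, 0.607 and 0.663). GCNT2 next to TFAP2A was below background on all arrays. On the sides of SNAI2, LOC421108 passed in no comparison, and C8orf22 had means of 49.8, 38.1 and 29.1 in mandibular, maxillary and frontonasal pools. C8orf22 was above background on 1 frontonasal array, and its difference of 0.54 ± 0.16 between mandibular and frontonasal pools did not pass (adjusted p = 0.168), although the arrays did not overlap.

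For the members called in at least 1 comparison, the 3 genes with the most similar signal over the 9 arrays were taken by Pearson correlation, as a description, since the 9 points are 3 arrays in each of 3 groups. The genes most like TFAP2B were ANTXR1, a cell surface receptor for matrix collagen (r = 0.995), TTC9 (0.993) and IGFBP2, a binding protein of insulin-like growth factors (0.993). ANTXR1 read 349 to 473 in frontonasal pools against 62.3 to 73.7 in mandibular and 67.8 to 86.2 in maxillary pools. The genes most like TWIST2 were LSS, a cholesterol synthesis enzyme gene (0.989), C4orf48 (0.98) and SNAI1 (0.98). SNAI1 in turn was most like C4orf48 (0.981), MAB21L2, a gene of eye and craniofacial development (0.981), and TWIST2 (0.98). SNAI2, with its graded order, was most like RERG, a RAS-related growth inhibitor (0.957), the ephrin receptor EPHA3 (0.951) and the collagen lysyl hydroxylase PLOD2 (0.946). EPHA3 read 663 to 797, 235 to 299 and 90.5 to 154 in mandibular, maxillary and frontonasal pools, and its step between the jaw buds was 1.46 ± 0.18 (limma adjusted p = 0.0233).

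A list of 68 partners, targets and further regulators of crest and mesenchyme put the members among the genes they work with. Of these, 61 were measured, 55 lay above background on at least 1 array, and 25 were called in at least 1 comparison. The share of all named genes called in at least 1 comparison is not given, so shares are set out by comparison. Between mandibular and frontonasal pools 9 were higher, 13 lower and 39 did not pass, or 36.1% called against 4.14% of all named genes, with a median log2 difference of -0.11 against 0.00. Between maxillary and frontonasal pools 6 were higher, 8 lower and 47 did not pass (23%, median -0.09, against 3.52% and -0.01). Between the jaw buds 4 were higher, 4 lower and 53 did not pass (13.1%, median -0.08, against 0.454% and 0.01). The first count was 13 without mandibular pool 2 and 14 without mandibular pool 3, the second 9 without frontonasal pool 1, and the third 1 or 2 without any 1 of the 6 jaw arrays. Without frontonasal pool 2 the counts were 23, 16 and 8. The list was chosen with earlier results of these data known, so its shares beside those of all genes are a description and not a test.

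Among 7 measured relatives and partners of TFAP2, CITED4, a coactivator of TFAP2 proteins, was the only one called. That was 14.3% in each comparison with the frontonasal mass, against 4.14% and 3.52% of all named genes. CITED4 read 110 to 119 in mandibular, 74.4 to 76.8 in maxillary and 155 to 208 in frontonasal pools. It was lower than in the frontonasal mass by -0.56 ± 0.11 and -1.06 ± 0.11 (limma adjusted p = 0.033 and 0.00173), the same direction as TFAP2B.

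Of the 11 measured partners and inhibitors of TWIST, 3 were called in at least 1 comparison. The share called was 27.3% for mandibular and 9.09% for maxillary minus frontonasal pools, against 4.14% and 3.52% of all named genes. Between the jaw buds it was 9.09%, against 0.454%. The E protein genes TCF3, TCF4 and TCF12, whose products dimerise with TWIST, did not pass in any comparison, with log2 differences from the frontonasal mass between -0.18 and 0.07. ID1, which sequesters E proteins, was higher than in the frontonasal mass by 1.51 ± 0.17 in mandibular and 1.64 ± 0.17 in maxillary pools (limma adjusted p = 0.00267 and 0.00198). HAND2, a partner of TWIST1 in the distal arch, read 171 to 204 in mandibular and 3.68 to 16.6 in maxillary pools, below background there, a ratio of at least 5.39 (adjusted p = 0.0336). Of its frontonasal values, 2 were at or under 5.15 and 1 was 50. HAND2 was also called higher in mandibular than in frontonasal pools, by 2.78 ± 0.43 (limma adjusted p = 0.0123). Without frontonasal pool 2 this was 3.36 (adjusted p = 0.000333). Maxillary minus frontonasal pools gave -0.32 with all arrays and 0.25 without that pool, and passed in neither (adjusted p = 0.827 and 0.704). TCF15 exceeded its mandibular signal at least 1.35-fold in frontonasal pools (adjusted p = 0.0133).

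Of 15 measured relatives of SNAI and genes of epithelial to mesenchymal transition, none was called higher in either jaw bud than in the frontonasal mass, and 3 were lower in each. Of all named genes, 1.83% were called higher in mandibular and 1.31% in maxillary pools, so the lack of higher calls is near that share. The lower calls were 20% of the 15 in each, against 2.31% and 2.21% of all named genes. CDH1, the epithelial cadherin that SNAI proteins repress, read 614 to 732 in mandibular, 500 to 623 in maxillary and 913 to 1453 in frontonasal pools. Its log2 difference from the frontonasal mass was -0.86 ± 0.17 and -1.09 ± 0.17 (limma adjusted p = 0.041 and 0.0159), opposite in sign to SNAI1. These were -0.79 and -1.02 without frontonasal pool 2, and the first lost its call (adjusted p = 0.101 and 0.049). CDH1 is also one of the surface epithelium markers whose sums are given above. Neither the part of epithelial content nor that of SNAI1 in the CDH1 difference was tested. The mesenchymal and neural cadherin CDH2 was lower as well, by -1.07 ± 0.13 and -0.83 ± 0.13 (adjusted p = 0.00448 and 0.0162). CDH11, a mesenchymal cadherin, was lower in mandibular pools (-0.59 ± 0.10, adjusted p = 0.0152) and the tight junction gene CLDN1 in maxillary pools (-0.57 ± 0.10, adjusted p = 0.0261).

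The 14 measured crest specifiers moved in both directions, with 4 higher and 5 lower in mandibular and 2 higher and 4 lower in maxillary than in frontonasal pools. These calls covered 64.3% and 42.9% of the 14, against 4.14% and 3.52% of all named genes. Between mandibular and maxillary pools 3 were higher and 2 lower, or 35.7%, against 0.454%. ZIC1, a zinc finger gene of the neural plate border, exceeded its mandibular and maxillary signal at least 8.93-fold and 8.54-fold in frontonasal pools (adjusted p = 0.00094 and 0.00213). ZIC1 is also one of the forebrain markers, most of which were lower in both jaw buds, and the part of forebrain tissue in its difference was not tested. PAX7, an early crest regulator in chick, exceeded them at least 2.29-fold and 2.19-fold there (adjusted p = 0.000226 and 3e-04). SOX8, a crest SOXE gene, differed by -2.60 ± 0.26 and -2.45 ± 0.26 (limma adjusted p = 0.00154 and 0.00231). MSX2, a BMP target of distal arch mesenchyme, was higher in mandibular pools than in both other groups, by 2.24 ± 0.24 over frontonasal and 2.35 ± 0.24 over maxillary pools (adjusted p = 0.00236 and 0.0115).

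Of the 14 measured mesenchyme genes, 3 were higher and 3 lower in mandibular than in frontonasal pools, and 3 were higher in maxillary pools. That was 42.9% and 21.4% called, against 4.14% and 3.52% of all named genes. Between mandibular and maxillary pools 2 were lower and none higher, or 14.3%, against 0.454%. DLX1 was at least 3.9-fold and 6.73-fold higher in mandibular and maxillary pools than in the frontonasal mass. PRRX1, a homeobox gene of mesenchyme, was higher by 1.02 ± 0.15 and 1.24 ± 0.15 (limma adjusted p = 0.0102 and 0.00437), the direction of TWIST2 and SNAI1. PRRX2 was higher in maxillary pools than in frontonasal (1.21 ± 0.15, adjusted p = 0.00416) and mandibular pools, the latter stated as mandibular minus maxillary -0.99 ± 0.15 (adjusted p = 0.0415). ALX1, of frontonasal mesenchyme, was lower in mandibular pools than in frontonasal (-2.31 ± 0.14, adjusted p = 0.000187) and maxillary pools (-1.64 ± 0.14, adjusted p = 0.00643).

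**Figure D4:**
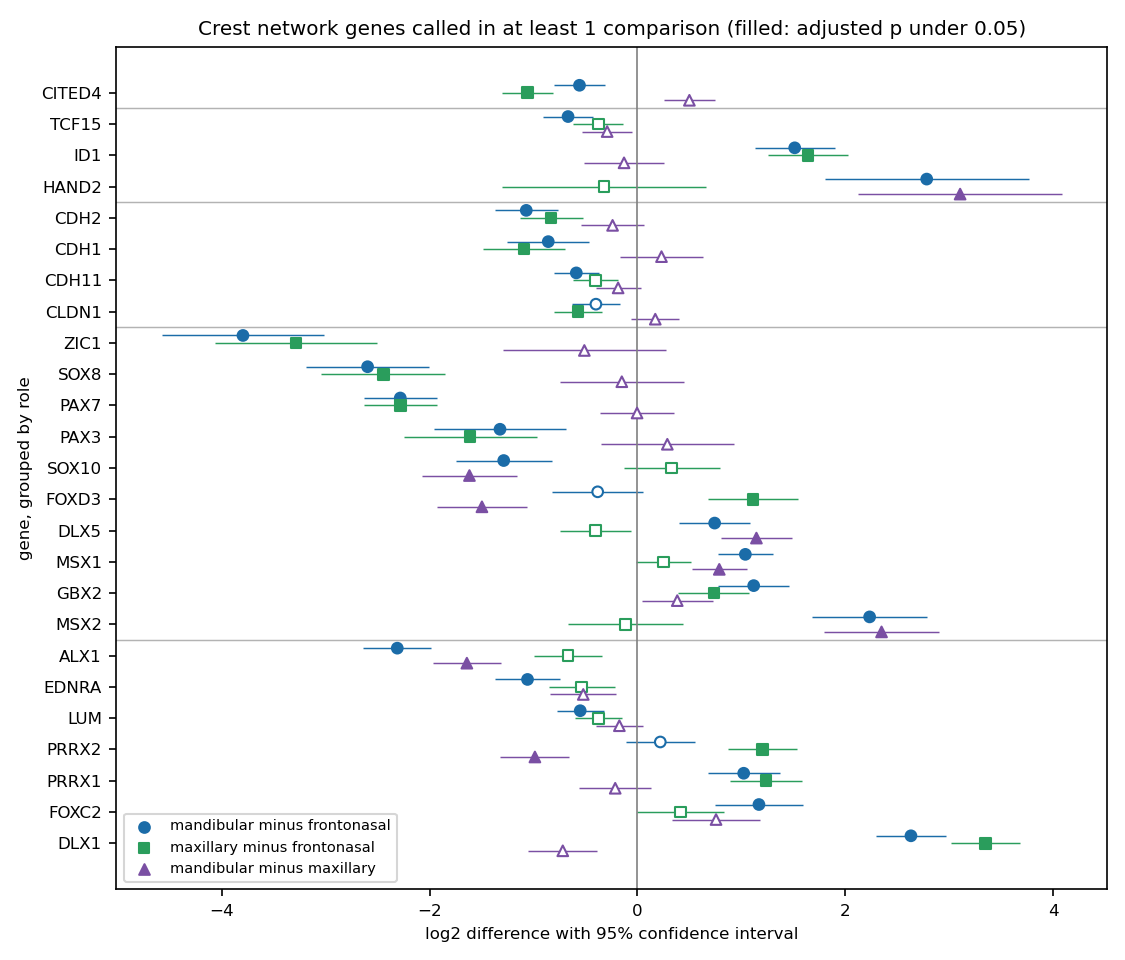
Log2 differences of the 25 listed crest and mesenchyme genes called in at least 1 comparison, with 95% confidence intervals, grouped by role and separated by horizontal lines, filled where the adjusted p was under 0.05. CITED4, CDH1, CDH2, ZIC1, SOX8 and PAX7 lay below 0 in both comparisons with the frontonasal mass, and ID1, PRRX1 and DLX1 above 0, where the values of genes below background depend on the pseudocount.

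Crest mesenchyme, endothelium and neuron markers varied between the pools as well. The summed signal of the 7 measured crest mesenchyme markers was 3864 to 4444 in frontonasal, 3524 to 4122 in mandibular and 5039 to 6549 in maxillary pools. These markers include TWIST1, their sum is carried mostly by COL1A2 and PRRX1, and they went in both directions, with PRRX1 higher and ALX1 lower in mandibular than in frontonasal pools. The 10 endothelial markers summed to 1719 to 2139 in frontonasal, 3095 to 3298 in mandibular and 2747 to 3366 in maxillary pools. This sum, carried mostly by CDH5 and FLI1, was lower in the frontonasal mass like TWIST2 and SNAI1. In each jaw bud 3 of the 10 were called higher than in the frontonasal mass and 7 did not pass, while 1.83% and 1.31% of all named genes were called higher. The part of endothelium in the TWIST2 and SNAI1 differences was not tested. The 8 measured neuron markers summed to 583 to 943 in frontonasal, 1025 to 1123 in mandibular and 458 to 482 in maxillary pools. Of these, 2 and 4 were called lower in mandibular and maxillary than in frontonasal pools, against 2.31% and 2.21% of all named genes. NEUROG1 and NEUROG2, called in both, had frontonasal means of 29.5 and 29.6, with 1 and 0 frontonasal arrays above background. In mandibular minus frontonasal pools ISL1, STMN2, NEFM and TUBB3 were higher (2.02, 0.64, 0.67 and 0.17) without passing. ELAVL4 and NEUROD1 were lower there (-0.49 and -0.88), also without passing. ISL1 had the highest mean of these markers in mandibular pools (446). STMN2 was higher in mandibular than in maxillary pools (1.63, limma adjusted p = 0.0253). The part of neurons in the member differences was not tested. GAPDH probe sets of the 3' and 5' ends, read as a measure of RNA integrity, had a ratio of 1.27 to 1.51 in frontonasal and 1.19 to 1.29 in the other pools, and those of actin a ratio of 1.88 to 2.41 in frontonasal and 1.99 to 2.46 in the other pools. The groups overlapped in both, and the part of these ratios was not tested. For GAPDH the overlap came only from frontonasal pool 2 (1.27), while frontonasal pools 1 and 3 (1.51 and 1.38) lay above all jaw bud arrays.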

How the data were processed

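Deposited values were linear probe set intensity on Affymetrix chicken arrays, already scaled to a common level by the authors, as the nearly equal trimmed means of the columns show. Per the labels' protocols, cRNA came from 500 ng of total RNA by a 2-cycle procedure. The sources used here name neither the summarisation software nor scan dates. Columns of other samples numbered 0. From the 38535 deposited probe sets, 96 controls were left out, arrays were scaled to a common median (factors 0.961 to 1.04) and log2(signal + 16) was tested. Platform annotation gave 27168 tested probe sets 1 gene, 177 several and 11094 none, and symbols were updated through the GRCg7b gene table, which held 26853. The brightest probe set on average stood for each of 13009 genes. limma 3.58.1 in R 4.3.3 fitted 3 group means to 9 arrays (6 residual degrees of freedom), with Benjamini-Hochberg adjustment over 38439 probe sets, and was tested on simulated data. The members, the gene lists and the rules for naming genes (all members, up to 4 called genes of each role with the largest difference, and the 3 genes most correlated with each called member among those above background on at least 3 arrays) were chosen with earlier results of these data known. Where a group was below background on all its arrays, a fold is given as at least the brighter geometric mean over the background of the dimmer arrays. Alternatives were other pseudocounts (4 and 64), no scaling, quantile normalization, no dim probe sets (the lowest 40%), fits of 2 groups, the replicate number as a block, trended variance and leaving out each array. Of the 68 listed crest and mesenchyme genes, 61 were analysed here.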

Additional observations from a re-analysis of the deposited data

How the results depend on the processing

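The calls of TFAP2B, TWIST2 and both SNAI1 probe sets against the frontonasal mass kept direction and significance in all 17 alternative fits run for each, and SNAI2 lost its call in 5 of 17. Differences near 0 changed sign without passing: TWIST1 between the jaw buds was -0.00041 with a pseudocount of 64, -0.015 without scaling and -0.0087 after quantile normalization, and -0.13 to 0.15 when 1 array was left out. Leaving out 1 array gave TWIST1 -0.0098 to 0.19 and -0.037 to 0.24 in mandibular and maxillary minus frontonasal pools, and TFAP2A -0.018 to 0.13 between the jaw buds. A fit of only the 2 groups called 613 probe sets for mandibular and 412 for maxillary minus frontonasal pools (974 and 866 with all arrays), and 8 listed crest genes in the latter. Between the jaw buds, a pseudocount of 4 called 46 probe sets and 4 listed genes, against 101 and 8. Leaving out 1 array gave 526 to 1089, 424 to 797 and 15 to 174 probe sets, and 13 to 23, 9 to 16 and 1 to 8 listed genes, in the 3 comparisons. With the replicate number as a block, 47 probe sets were called between the jaw buds, and no member changed its call. The main fit did not pair the pools by number. Deviations of same-number pairs correlated at 0.017 to 0.12, with only 1 of 9 over 0.1. Those of different-number pairs correlated at -0.095 to 0.011, and each of the 9 arrays correlated best with an array of its own number. The labels name no batch, and whether pools of the same number shared one was not tested.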
